A study of Zea mays with 4 samples.

Results

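In whole maize seedlings chilled for a day, 40 genes of the nuclear genome that gave almost no fragments in unchilled plants were clearly counted in both chilled libraries. They were chosen by level: a nuclear identifier had to have a mean under 0.1 CPM in control and 1 CPM or more in each cold library, and 40 of 45911 nuclear identifiers did (0.0871%). CPM is the number of fragments of a gene per 1000000 fragments assigned to genes in that library. Because these levels chose the genes, the rise itself is given below as a description, and nothing is read from test calls on it. Of the 40, 37 carry Zm00001d identifiers, the gene models of the B73 annotation, and 3 carry ENSRNA identifiers, Ensembl's loci for short non-coding RNA.

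The plants were wild-type B73, the inbred line behind the maize reference genome, grown in soil for 9 days under 16 h light and 8 h dark at 25 to 28 °C. Control plants stayed at that temperature and cold plants were moved to 4 °C for 24 h, after which whole seedlings were collected at 10 days of age from 10 plants. Each condition had 2 RNA-seq libraries, with 20942576 to 28493929 assigned fragments. Nothing in the labels tells whether replicate libraries were grown apart, so the spread between them may be technical. The 2 libraries of each condition did differ by more than sampling noise, with a mean chi-square per gene, over genes with 20 or more fragments in the pair, of 11.3 in control and 25.0 in cold, where sampling alone gives about 1. In the file header all 4 alignments are named as filtered, cold replicate 1 alone also carries the word sample, and both controls carry the same code while the cold libraries have a code each. What was filtered or sampled and what the codes stand for is not given, and their part in the control counts and in the difference between the cold libraries was not tested. Each library is a mixture of all seedling tissues, so more expressing cells and more RNA per cell cannot be told apart, and the identifiers carry no names here by which the tissue could be checked against marker genes.

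Maize is a plant of tropical origin and is sensitive to chilling. In plants generally, cold is sensed and relayed through calcium signals and through transcription factors such as the CBF/DREB family, best described in Arabidopsis. These switch on sets of target genes, many of which are barely transcribed in warm plants, and whose products include protective proteins and enzymes for compatible sugars. Whether the 40 genes have any of these roles is not known from the sources used here. Of the 40 identifiers, 0 matched a name in the reference table, so they are described by structure, position and level.

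Near silence in the counts was common, and reaching 1 CPM in both cold libraries from it was rare. Reads mapping to several places or overlapping several genes were not counted. Of the near-silent identifiers on nuclear sequences, 16.4% overlapped another gene model, against 8.48% of those at 1 CPM or more in both cold libraries. The part of this in their low counts was not tested. In control, 20659 nuclear identifiers had a mean under 0.1 CPM. Of these, 17069 (82.6%) had no fragment in either cold library, and 2542 had some but stayed under a mean of 0.1 CPM. A further 876 had a cold mean from 0.1 up to 0.5 CPM, and 82 had 0.5 CPM or more without reaching 1 CPM in either library. Another 19 reached 1 CPM in cold replicate 1 only and 31 in cold replicate 2 only, with Zm00001d001927 the highest of them (22 and 71 cold fragments, 3.39 CPM in replicate 2). The remaining 40, or 0.194% of the near-silent identifiers, reached it in both. With 1 cold library left out, the same cut-offs took in 71 identifiers on replicate 2 alone and 59 on replicate 1 alone.

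**Figure D1:**
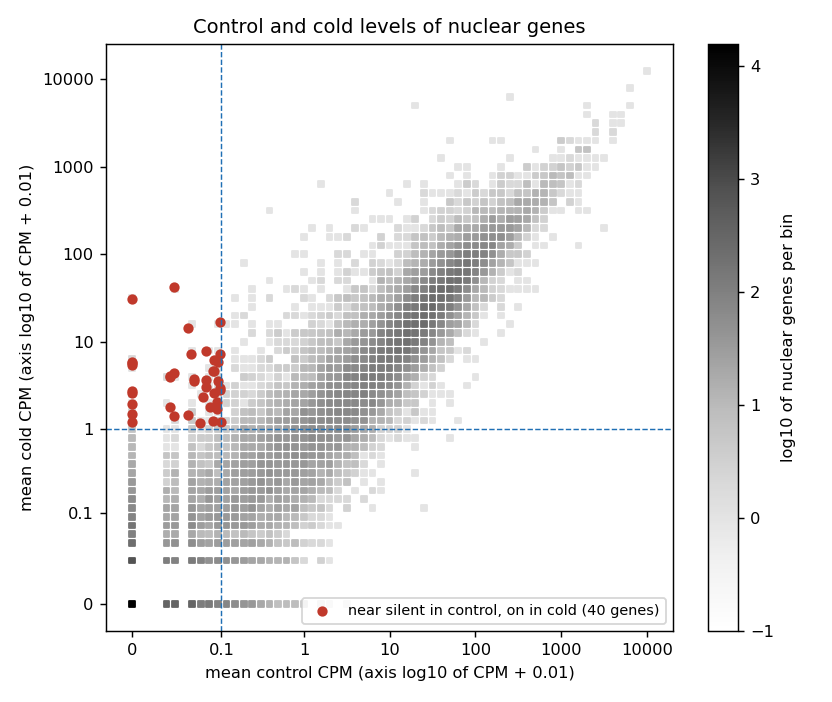
Mean cold CPM against mean control CPM of the nuclear identifiers, both axes as log10 of CPM + 0.01, with grey squares shaded by the number of genes in each bin and red points for the 40 genes. Dashed lines mark 0.1 CPM in control and 1 CPM in cold; the red points fill the sparse upper left corner, with cold means from 1.17 to 42.1 CPM.

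The control level of these genes was at the limit of what the depth could show. All 40 genes together had 56 and 44 fragments in control (0.000197% and 0.000186% of the libraries) and 4880 and 5361 in cold (0.0202% and 0.0256%). No gene had more than 5 control fragments in all. There were 9 genes with none, 9 with fragments in control replicate 1 only, 8 in control replicate 2 only and 14 in both. A count of 0 allows up to 3 fragments, or 0.105 and 0.127 CPM in the control libraries and 0.0575 CPM over both, so true silence and a very low level cannot be separated at this depth. The fragments carry no molecular identifiers and need not be independent molecules, so limits and intervals here cover counting error at most.

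The cut-offs pass through a continuous distribution. Just inside the control limit was Zm00001d014680 (mean 0.0984 CPM, 2 and 3 fragments). Then came ENSRNA049465132, Zm00001d010422, Zm00001d023394 and Zm00001d040026, all at 0.0948 CPM with 3 and 2 fragments. Just outside the control limit were Zm00001d012079, Zm00001d020967 and Zm00001d044373, each at 0.102 CPM with 1 and 4 control fragments. Their cold fragments were 56 and 114, 43 and 40, and 28 and 24. At the cold limit, the lower library was at 1.05 CPM for Zm00001d023424 and 1.10 CPM for Zm00001d037232 and Zm00001d043709 inside it. Outside it, Zm00001d015347, Zm00001d037397 and Zm00001d038058 were each at 0.993 CPM, with 24 fragments in cold replicate 1.

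All 40 genes passed the low-count filter of the test over the whole table, through their cold counts alone, and all were called higher (edgeR quasi-likelihood test, adjusted p under 0.05). Over all 23169 genes tested 27.0% were called higher, and with DESeq2, which also called all 40, 22.4% were. The choice of genes fixed that direction, so nothing is read from the count. The fitted log2 fold changes ran from 3.77 to 12.70 with a median of 6.41. They depend on the model's prior count where control is at or near 0, and with 1 library left out the median lay between 6.02 without cold replicate 2 and 7.64 without control replicate 1.

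Levels of different genes are compared here per kb of exon, since a longer transcript gives more fragments. On that scale the mean cold levels ran from 0.494 to 48.9 CPM per kb, with a median of 4.84. Of the 40, 13 were at or above 7.52 CPM per kb, the median of the 19724 nuclear genes that reached 1 CPM in both cold libraries, and 27 were below it. Fragments were concentrated in a few genes: Zm00001d014970 alone supplied 18.3% of the cold fragments of the 40, the first 2 together 31.7% and the first 4 together 45.5%. Only 4 genes had a mean of 10 CPM or more in cold and 28 were under 5 CPM.

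**Figure D2:**
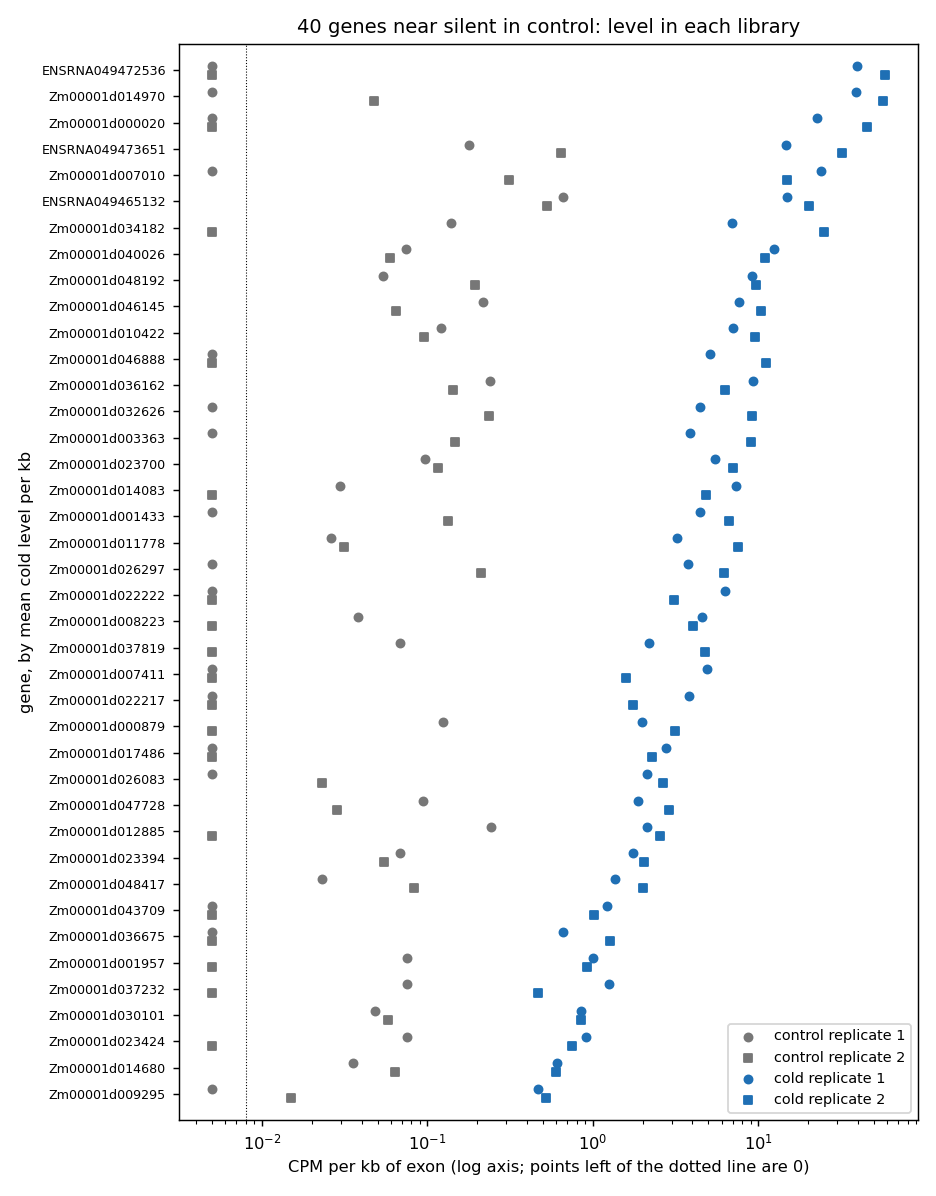
CPM per kb of exon in each library for the 40 genes, ordered by mean cold level, on a log axis. Grey marks are control and blue marks cold libraries (circles replicate 1, squares replicate 2), and marks left of the dotted line are at 0; cold means run from 0.494 at the bottom to 48.9 CPM per kb at the top.

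The genes with the most fragments were not alike in structure. Zm00001d014970 has 3 exons with 882 exon bases (chromosome 5, 70576573 to 70577620, minus strand) and had 0 and 1 fragments in control and 830 and 1043 in cold. It reached 47.7 ± 12.4 CPM per kb (SD, n = 2, as for all levels below), and the summed cold fragments, scaled by library totals, were 2170 (389 to 85600) times those of control, the range being a 95% counting interval as in the ratios that follow. Zm00001d000020, with 1 exon of 909 bases (the unplaced contig B73V4_ctg150, 1370542 to 1371450, minus strand), had 0 and 0 fragments in control and 500 and 869 in cold. Its level in cold was 34.2 ± 16.2 CPM per kb, at least 528-fold higher than a floor of 3 fragments over both control libraries. Here and below, such a bound covers the control floor alone. The cold fragments are taken as counted, without their counting error, so it is not comparable with the lower end of a counting interval. In both genes cold replicate 2 was the higher library, and in Zm00001d000020 it was 2.01 times replicate 1.

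Next by cold fragments were Zm00001d040026 and Zm00001d014083, both with 3 exons. Zm00001d040026 (chromosome 3, 23369523 to 23371202, minus strand) had 3 and 2 fragments in control and 433 and 329 in cold, a cold level of 16.8 ± 1.56 CPM and a ratio of 176 (75.2 to 545). Zm00001d014083 (chromosome 5, 31745001 to 31747554, minus strand) had 2 and 0 fragments in control and 417 and 239 in cold, a cold level of 14.3 ± 4.13 CPM and a ratio of 380 (105 to 3140). Cold replicate 1 was the higher library for both, by 1.14- and 1.51-fold. These 4 genes were the ones with a cold mean of 10 CPM or more.

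Zm00001d040026 needs care as a measurement, because its locus is annotated more than once. Its 57 exon rows merge into 3 exon blocks, and 5 other gene models on the same strand overlap it, so 1001 of its 1428 exon bases are shared and 427 are its own. The command in the file header does not assign fragments that overlap several genes, and all 5 overlapping models had 0 fragments in every library. The counts of Zm00001d040026 thus come from fragments that touch no other model, while its level per kb is divided over all 1428 bases. Zm00001d007010, 1 exon of 405 bases (chromosome 2, 220153465 to 220153869, plus strand), contains the minus-strand model Zm00001d007011, with 0 fragments in every library, which takes 174 of its exon bases and leaves 231. It had 0 and 3 fragments in control and 234 and 126 in cold, with the higher value in cold replicate 1 by 1.61-fold, and a ratio of 139 (47.1 to 676). Strand was not used in counting, so fragments from either strand cannot be told apart. No other of the 40 genes shared exon bases with another model.

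The 9 genes with no control fragment had cold levels from 0.966 to 48.9 CPM per kb. Beside Zm00001d000020 they were the short RNA ENSRNA049472536 and 7 Zm00001d genes. Zm00001d046888, 1 exon of 669 bases (chromosome 9, 108884356 to 108885024, minus strand), had 83 and 155 cold fragments and was at least 91.8-fold higher in cold than the floor. Zm00001d007411, with 2 exons (chromosome 2, 231129787 to 231130699, plus strand), had 100 and 28, at least 49.4-fold higher. Its cold libraries were 3.09-fold apart and so its mean rests mostly on replicate 1.

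Zm00001d036675 is the longest locus of the 40 in genomic span, with 9 exons over 10730 bases (chromosome 6, 97366864 to 97377593, plus strand) of which 81.4% is intron. It had 32 and 53 cold fragments, at least 32.8-fold higher than the floor. Zm00001d017486, with 2 exons (chromosome 5, 197360610 to 197361301, minus strand), had 39 and 28, at least 25.8-fold higher. Zm00001d043709, with 3 exons (chromosome 3, 207985777 to 207987092, plus strand), had 32 and 23, at least 21.2-fold higher and the lowest bound of the 9. Both of these had close values in the cold libraries, 1.21-fold apart.

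The other 2 of the 9 lie near each other toward the end of chromosome 7 and form the closest pair among the 40. They are at 94.8% and 94.9% of its length, measured to the last annotated gene. Zm00001d022217, with 3 exons (172977243 to 172979203, plus strand), had 85 and 34 cold fragments and Zm00001d022222, with 2 exons (173071561 to 173073045, plus strand), had 187 and 79. They are at least 45.9- and 103-fold higher in cold than the floor. A gap of 92357 bases with 3 annotated genes separates them, and none of those 3 had a fragment in any library. Both were higher in cold replicate 1, by 2.17- and 2.05-fold, which is the less common direction among the 40. The next closest pairs were Zm00001d023394 and Zm00001d023424 on chromosome 10, 510117 bases apart with 26 genes between them, of which 14 had no fragment, and Zm00001d001957 and ENSRNA049472536 on chromosome 2, 1194203 bases apart. Apart from the pair on chromosome 7, no 2 of the 40 genes lay closer together than that pair on chromosome 10.

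The 3 short non-coding RNA loci had high levels per kb, on loci of 119 to 197 bases. ENSRNA049472536 (chromosome 2, 4662757 to 4662875, minus strand) is 119 bases long and had 0 and 0 fragments in control and 114 and 145 in cold. Its level was 48.9 ± 13.1 CPM per kb, the first of the 40 on that scale, 5.82 ± 1.56 CPM without the length scaling, and at least 99.9-fold higher in cold than the floor. ENSRNA049473651 is 197 bases long (chromosome 1, 66512570 to 66512766, plus strand) and had 1 and 3 fragments in control and 70 and 133 in cold, a ratio of 58.7 (22.6 to 218). ENSRNA049465132 is 160 bases long (chromosome 1, 190050469 to 190050628, plus strand) and had 3 and 2 fragments in control and 58 and 68 in cold, a ratio of 29.2 (12.2 to 91.4). All 3 were higher in cold replicate 2, and none overlaps another model, although ENSRNA049472536 lies only 237 bases from Zm00001d002028. RNA fragments can be longer than such loci, so their level per kb is less certain than that of longer genes. The class of RNA they encode is not given in the table.

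Single-exon genes made up 11 of the 37 Zm00001d genes. Zm00001d034182 is 252 bases long (chromosome 1, 285931717 to 285931968, plus strand) and had 1 and 0 fragments in control and 42 and 131 in cold. Its cold libraries were 3.6-fold apart, the widest gap of the 40. Zm00001d048192 and Zm00001d046145, both on chromosome 9, have exactly 651 exon bases each and similar levels, 9.45 ± 0.332 CPM per kb and 9.02 ± 1.97 CPM per kb. Zm00001d048192 (152165378 to 152166028, minus strand) had 1 and 3 fragments in control and 145 and 132 in cold, and Zm00001d046145 (66927904 to 66928554, plus strand) had 4 and 1 fragments in control and 120 and 142 in cold. Whether their sequences are related was not examined, since no genome sequence was used here.

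Of the other single-exon genes, Zm00001d032626 (chromosome 1, 232393313 to 232393846, plus strand) had 0 and 3 control fragments against 57 and 103 cold fragments, and Zm00001d037819 (chromosome 6, 138778343 to 138778855, plus strand) had 1 and 0 control fragments against 27 and 51 cold fragments. Both were over 2-fold higher in cold replicate 2 than in replicate 1, and each had its control fragments in a single library. Zm00001d001433 (chromosome 6, 137367374 to 137368008, plus strand) had 0 and 2 control fragments against 68 and 89 cold fragments. Zm00001d047728 (chromosome 9, 140062761 to 140064254, minus strand) had 4 and 1 control fragments against 68 and 90 cold fragments, and Zm00001d023394 (chromosome 10, 4668713 to 4670263, plus strand), the longest of the single-exon group at 1551 bases, had 3 and 2 control fragments against 66 and 66 cold fragments. Over the 11 genes the median cold level was 8.10 CPM per kb, with a range of 1.90 to 34.2, and the median exon length was 651 bases.

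Genes with 2 exons numbered 9, with a median cold level of 4.70 CPM per kb. Zm00001d010422 (chromosome 8, 114407024 to 114407967, minus strand) had 3 and 2 fragments in control and 149 and 176 in cold, and Zm00001d011778 (chromosome 8, 161412063 to 161413479, minus strand) had 1 and 1 fragments in control and 105 and 212 in cold. Their ratios were 75.2 (31.9 to 233) and 183 (50.4 to 1520). Zm00001d011778 was 2.33-fold higher in cold replicate 2 than in replicate 1, Zm00001d010422 1.36-fold. Zm00001d023700 (chromosome 10, 16132921 to 16135404, minus strand), of which 70.7% of the span is intron, had 2 and 2 control fragments against 97 and 108 cold fragments. Zm00001d036162 (chromosome 6, 75210144 to 75210697, minus strand), with only 294 exon bases, had 2 and 1 control fragments against 66 and 39 cold fragments. In all 4 of these genes every cold value was far above both control values, but no more than 3 control fragments stood behind the comparison in either library. Zm00001d000879 (chromosome 2, 106158735 to 106160754, plus strand) had 2 and 0 control fragments against 27 and 37 cold fragments, with 72.0% intron. Zm00001d037232 (chromosome 6, 116994052 to 116996499, minus strand) had 5 and 0 control fragments against 71 and 23 cold fragments. All its control fragments were in control replicate 1, and its cold level was 2.67-fold higher in cold replicate 1. The labels do not link these 2 libraries.

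Genes with 3 exons numbered 10, with a median cold level of 3.89 CPM per kb and the widest range, 0.601 to 47.7. Apart from those above, Zm00001d003363 (chromosome 2, 41640053 to 41640900, plus strand) had 0 and 2 control fragments against 54 and 109 cold fragments, and Zm00001d026297 (chromosome 10, 143164305 to 143165139, minus strand) had 0 and 3 control fragments against 55 and 78 cold fragments. Both had control fragments in control replicate 2 only and more cold fragments in cold replicate 2. The labels do not link same-numbered libraries, so nothing is read from the shared number. Zm00001d012885 (chromosome 5, 1594063 to 1594988, minus strand) had 5 and 0 control fragments against 37 and 39 cold fragments, a ratio of 17.6 (7.22 to 55.7). The 2 lowest ratios of the 40 were in this group: 12.5 (5.04 to 40) for Zm00001d014680 (chromosome 5, 58716795 to 58719001, minus strand; 2 and 3 control fragments against 29 and 25 cold fragments) and 16.2 (5.99 to 61.5) for Zm00001d030101 (chromosome 1, 105700155 to 105702010, minus strand; 2 and 2 control fragments against 30 and 26 cold fragments). Their cold libraries were level with each other, at 1.20 and 1.19 CPM and at 1.24 CPM in both.

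Genes with 4 or more exons numbered 7 and had the lowest levels per kb, with a median of 0.966 and a range of 0.494 to 4.28. Zm00001d026083, with 9 exons (chromosome 10, 138054130 to 138057959, plus strand), had 0 and 1 fragments in control and 94 and 103 in cold, a ratio of 228 (40.4 to 9050). Zm00001d009295, with 5 exons and the greatest exon length of the 40 at 2838 bases (chromosome 8, 52875683 to 52879218, plus strand), had 0 and 1 control fragments against 32 and 31 cold fragments. Zm00001d023424, with 8 exons (chromosome 10, 5180381 to 5183180, minus strand), had 3 and 0 control fragments against 31 and 22 cold fragments. Like Zm00001d037819 above, it had control fragments in replicate 1 only, and its cold level was among the lowest of the 40 per kb. Zm00001d001957, with 5 exons (chromosome 2, 3466022 to 3468553, minus strand), had 4 and 0 control fragments against 45 and 36 cold fragments. Zm00001d048417, with 4 exons (chromosome 9, 155903728 to 155905521, plus strand), had 1 and 3 control fragments against 50 and 64 cold fragments. The other two, Zm00001d036675 and Zm00001d008223, are described with their neighbours. The rule asks for 1 CPM whatever the length, so a short gene could enter only at a high level per kb and a long gene at a low one, and the order by exon number goes with exon length, whose medians were 651, 840, 1006 and 1842 bases for 1, 2, 3 and 4 or more exons.

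Most of the 37 Zm00001d genes were small models with few exons. Single-exon genes were 29.7% of them, 37.0% of the 19123 Zm00001d genes near silent in control and 13.7% of the 19683 with at least 1 CPM in both cold libraries. Genes with 2 or 3 exons were 51.4%, against 30.8% and 25.3%, and genes with 6 or more exons were 8.11% (3 genes), against 16.3% and 41.2%. Median exon length was 909 bases, between 705 in near-silent genes and 2014 in expressed ones, and median span 1382 bases against 1116 and 3910. Exon rows that overlap within a gene, a sign of more than 1 annotated transcript, were found in 5 of the 37 (13.5%), against 11.7% and 58.1%. The same rule turned round, under 0.1 CPM in cold and at least 1 CPM in both control libraries, gave 24 genes, 23 of them Zm00001d, of which 11 (47.8%) had a single exon. These are descriptions of annotated models and no test was made.

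**Figure D3:**
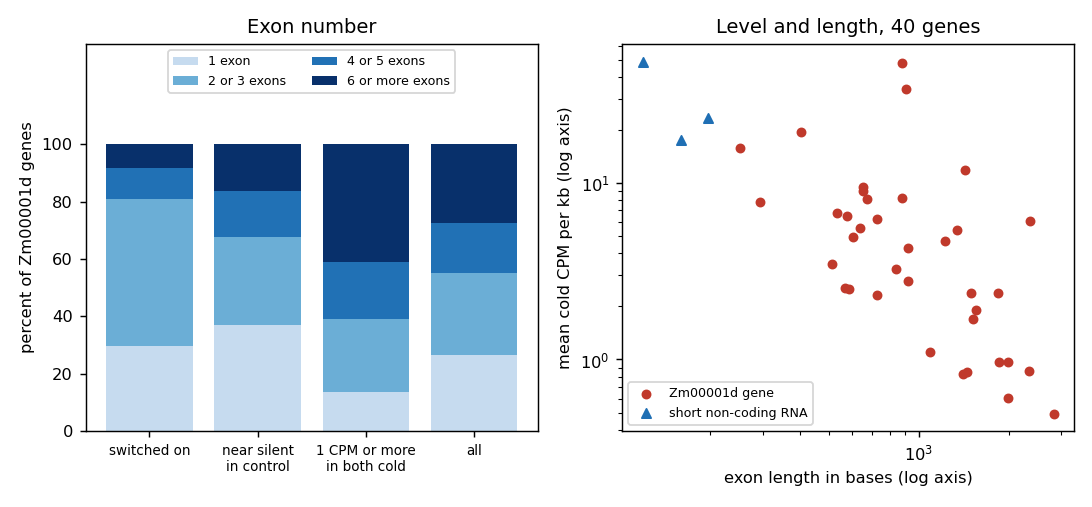
Left, percent of Zm00001d genes with 1, 2 or 3, 4 or 5, and 6 or more exons among the 37 switched-on genes, genes near silent in control, genes at 1 CPM or more in both cold libraries, and all nuclear genes. Right, mean cold CPM per kb against exon length for the 40 genes on log axes; the 3 short RNAs are at the left, and the empty lower left follows from the limit of 1 CPM.

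The 40 genes were scattered over the genome. Chromosome 2 held 6, chromosomes 1, 5, 6, 9 and 10 held 5 each, chromosome 8 held 4, chromosomes 3 and 7 held 2 each, and 1 was on an unplaced contig. None was on chromosome 4, which has 4867 nuclear identifiers. Per 1000 nuclear identifiers the number ran from 0 on chromosome 4 and 0.422 on chromosome 3 to 1.46 on chromosome 9 and 1.58 on chromosome 10. Exactly 20 of the 40 were on the plus strand. Of the 39 on chromosomes, 23 (59.0%) lay in the outer 20% at either end, measured to the last annotated gene, as did 56.0% of all nuclear identifiers and 59.9% of those at 1 CPM or more in both cold libraries.

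Their surroundings were not set apart by distance. The median gap to the nearest annotated gene was 2523 bases, against 2871 over all nuclear identifiers. A neighbour lay within 10 kb for 29 of the genes and within 1 kb for 10, while 8 were over 20 kb from both neighbours. Of the 80 adjacent genes, 31 (38.8%) were themselves near silent in control, against 45.0% of all nuclear identifiers. No fragment in any library was found for 23 of the 80 (28.7%), against 34.3% of all nuclear identifiers. For Zm00001d003363, Zm00001d022217, Zm00001d032626 and Zm00001d040026 both adjacent models had none. The 31 and the 23 include 2 models that overlap a switched-on gene, where fragments touching both genes are not assigned. Zm00001d007011 lies wholly inside the exon of Zm00001d007010, so the counting fixed it at 0. Zm00001d000492 lies within the span of Zm00001d040026, so its 0 says little about its activity.

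The adjacent genes, which the rule did not use, divided about evenly between directions. Of 46 tested, 13 were called higher (28.3%) and 14 lower (30.4%) by the edgeR quasi-likelihood test at an adjusted p under 0.05. Their median log2 fold change was 0.07. Over all tested genes the shares were 27.0% and 27.0%, so the calls of the neighbours were near the background. With library totals alone, under which 20.6% of all tested genes were called higher and 35.3% lower, 9 neighbours were higher and 16 lower. Without control replicate 2, 7 of 47 tested neighbours were called lower, when 16.7% of all tested genes were. Without control replicate 1, 9 of 47 were called higher and 11 lower, when 19.6% and 17.6% of all tested genes were. Within 10 kb, 6 of 20 tested were higher and 5 lower.

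Neighbours called over 4-fold higher numbered 3 of the 46 (6.52%), near the 5.68% of all tested genes. Their distances from the switched-on gene were 761, 614 and 1718 bases. The 26 tested neighbours more than 10 kb away had log2 fold changes from -2.89 to 1.40. Zm00001d008223, with 5 exons (chromosome 8, 1663801 to 1665182, plus strand), had 1 and 0 fragments in control and 101 and 77 in cold. The gene before it on the same strand, Zm00001d008222, ends 761 bases upstream and had 16 and 6 control fragments and 7031 and 7894 cold ones (log2 fold change 9.83, SE 0.34, adjusted p = 1.3e-05, edgeR quasi-likelihood test). In cold the downstream gene thus had 1.44% and 0.975% as many fragments as the upstream one. Whether any of its fragments came from transcripts that continue from the upstream gene was not tested. On the other side, Zm00001d008224, convergent at 113 bases, was lower (log2 fold change -0.99, SE 0.17, adjusted p = 0.0022).

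The other two such neighbours had smaller changes. Zm00001d036675, described above, faces Zm00001d036676 end to end at 614 bases, and the latter had 2 and 6 control fragments and 110 and 234 cold ones (log2 fold change 5.85, SE 0.69, adjusted p = 0.00042). Both genes of this pair had more cold fragments in replicate 2, and the neighbour missed the rule with a control mean of 0.162 CPM. Zm00001d048417 follows Zm00001d048416 on the same strand at 1718 bases, which went from 30 and 28 to 150 and 186 fragments (log2 fold change 2.97, SE 0.31, adjusted p = 0.00025). Zm00001d012885 faces Zm00001d012884 end to end at 470 bases, with 538 and 503 control and 1236 and 1258 cold fragments (log2 fold change 1.69, SE 0.15, adjusted p = 0.00013). Strand was not used in counting, so for facing pairs the strand a fragment came from is not known.

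Elsewhere, the genes beside a switched-on gene went either way or not at all. Zm00001d046888 lies between Zm00001d046887 at 3577 bases, which was lower (log2 fold change -2.00, SE 0.33, adjusted p = 0.0019), and Zm00001d046889 at 2934 bases, which was higher (0.88, SE 0.12, adjusted p = 0.00088). Zm00001d007009, at 6609 bases from Zm00001d007010, was lower (-0.74, adjusted p = 0.0049). Lower as well were Zm00001d014082 (-0.47, adjusted p = 0.011) beside Zm00001d014083 and Zm00001d017487 (-0.62, adjusted p = 0.013) beside Zm00001d017486, and Zm00001d023395 (0.56, adjusted p = 0.0048) beside Zm00001d023394 was higher. These last 3 calls were lost without control replicate 2, with adjusted p up to 0.12, 0.10 and 0.061 over the libraries left out, and those of Zm00001d014082 and Zm00001d023395 were also lost without control replicate 1. The call of Zm00001d023395 was lost with library totals alone too (log2 fold change 0.35). The adjacent models on either side of Zm00001d014970 had 7 and 6 control and 0 and 4 cold fragments (ENSRNA049458426) and 3 and 8 control and 18 and 7 cold fragments (Zm00001d014971, at 144 bases), and neither had enough for the test.

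**Figure D4:**
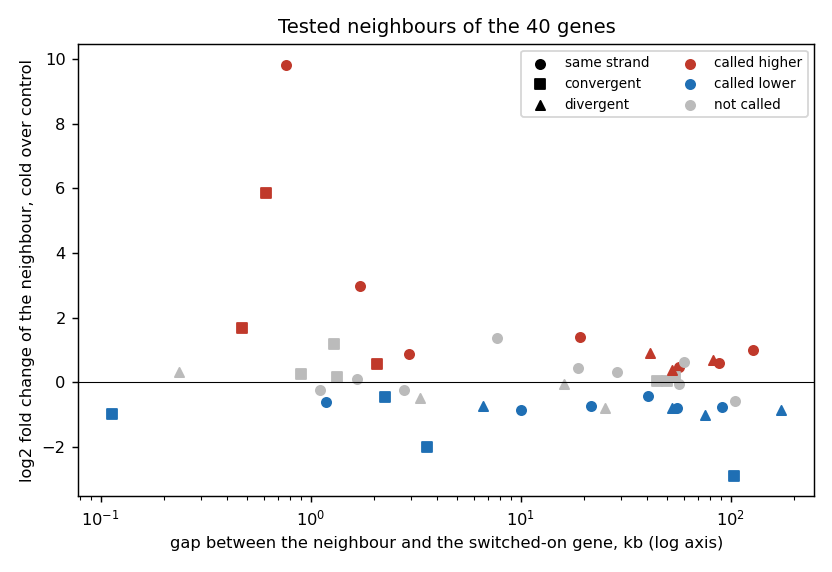
Log2 fold change of each tested neighbour, cold over control, against its distance from the switched-on gene in kb on a log axis, with symbols for relative strand and colours for the call at adjusted p under 0.05. The 3 neighbours over 4-fold higher are at 614, 761 and 1718 bases, and beyond 10 kb values run from -2.89 to 1.40.

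The 2 cold libraries differed more in these genes than in most genes of like level. The median difference between the cold libraries was 1.47-fold, and 12 of the 40 genes (30.0%) were over 2-fold apart. Among 14727 other nuclear genes with cold means in the same range of 1.17 to 42.1 CPM the median was 1.19-fold and 3.50% were over 2-fold apart. The gap held at low levels: of the 28 genes under 5 CPM, 8 (28.6%) were over 2-fold apart, against 4.74% of 4307 other genes under 5 CPM with at least 1 CPM in both cold libraries. Of 25 others of that kind that were called over 16-fold higher, 2 (8.00%) were. A call depends on agreement between the libraries of a condition, which may have kept genes with a wide gap out of that set. All 40 genes were called as well, but their rule did not ask for it.

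The 40 genes were more often higher in cold replicate 2, and so was a set of 25 other strongly induced genes under 5 CPM. Strongly induced genes at 5 CPM or more were not counted. Among the 40, 14 were higher in cold replicate 1 and 26 in replicate 2, whereas 63.7% of the other genes of like level were higher in replicate 1. Of the 25 others under 5 CPM called over 16-fold higher, 6 (24.0%) were higher in replicate 1, beside 10 of the 28 switched-on genes under 5 CPM (35.7%). The widest differences toward replicate 2 were in Zm00001d034182 (3.6-fold), Zm00001d003363 and Zm00001d011778 (both 2.33-fold). Toward replicate 1 they were in Zm00001d007411 (3.09-fold), Zm00001d037232 (2.67-fold), Zm00001d022217 (2.17-fold) and Zm00001d022222 (2.05-fold). These are values of 2 libraries with no test behind them. CPM is scaled by library totals here, while the test's TMM scaling factors were 0.966 for cold replicate 1 and 0.894 for cold replicate 2. Scaling by them would raise replicate 2 relative to replicate 1 in every gene. The shares higher in either library and over 2-fold apart therefore depend on the scaling, and they were not remade with these factors. The lower cold library of every gene was at 1.05 CPM or more, by the rule, and the summed ratios of the 31 genes with control fragments ran from 12.5 to 2170, with counting intervals that began at 5.04 or more.

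**Figure D5:**
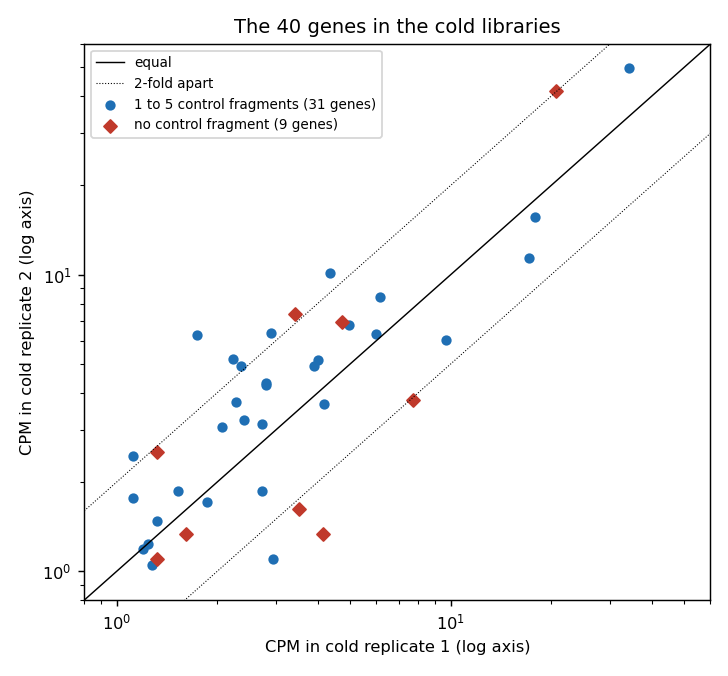
CPM in cold replicate 2 against cold replicate 1 for the 40 genes on log axes, with red diamonds for the 9 genes without a control fragment and blue points for the 31 with 1 to 5; the solid line marks equal values and dotted lines 2-fold differences. Of the 40, 12 lie beyond the dotted lines and 26 lie above the solid line.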

How the data were processed

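RNA-seq counts of 4 maize libraries (control and cold, 2 each) were analysed. The authors deposited raw fragment counts, made with featureCounts 1.6.4 on release 43 of the B73 RefGen_v4 annotation, per the file headers, and not normalized. The table also gives, per the file headers, each gene's exon positions, strand and exon length. The submitters' processing notes also name fastp and HISAT2. The headers show that strand, reads mapping to several places and reads overlapping several genes were not used. How RNA was selected is not stated.

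Members were found with CPM from column totals. They and the comparisons were chosen with earlier results of these data known. Every member is named; other genes are named where they lie at a cut-off or, within 10 kb of a member, were called, and Zm00001d001927, the untested models beside Zm00001d014970 and those overlapping a member were picked after their values were seen. Exons are merged exon rows. The adjacent genes are the previous and next in order of start. All genes kept by filterByExpr (minimum count 10, minimum total 15; 23169 kept, 23261 removed) were fitted with edgeR 4.0.16 in R 4.3.3, TMM scaling and the quasi-likelihood F test, two-sided, with Benjamini-Hochberg adjustment, threshold 0.05. The test was checked on simulated data, in which the changes were far smaller than those of the members and no changed gene was near silent in control. That check therefore does not cover genes like the members. Alternatives were other scalings, DESeq2 1.42.0, other filters and cut-offs, a replicate block and each library left out. A list of cold-response genes by name could not be tested, since 0 of the 45911 nuclear identifiers matched a name in the reference table. Intervals of ratios are exact 95% binomial (Clopper-Pearson) intervals. The SE of a log2 fold change was derived from the test, as its absolute value divided by the square root of the F statistic.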

Additional observations from a re-analysis of the deposited data

How the results depend on the processing

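The choice of the 40 genes fixed their direction and in effect their call, so the counts of calls on them are given as a record only and show nothing of stability: 40 were called higher with edgeR under RLE, upper-quartile or no scaling factors, without the low-count filter, at an adjusted p under 0.01, with DESeq2 and with any library left out (40 to 40). With the stricter filter of 5 CPM in 2 libraries 7 of them were tested and all 7 called, since the filter removes the rest. The replicate numbers share no stated batch, and the deviations of same-numbered libraries correlated at -0.0711 over 23169 genes; with the replicate block 40 of the 40, 13 neighbours higher and 14 lower were called. The number of genes follows the cut-offs by construction: 20 with a control limit of 0.05 CPM, 86 with 0.2 CPM, 24 with 2 CPM in cold and 115 with 0.5 CPM. TMM or RLE factors gave 55, which include all 40. The same limits on CPM per kb gave 64 genes, of which 22 are among the 40. With a library left out the number ran from 50 to 71, and it kept 30 and 33 of the 40 without control replicate 2 and 1. The count of neighbours called higher ran from 9 to 14 and that of neighbours called lower from 7 to 16 with a library left out. The 7 came without control replicate 2, where the share of all tested genes called lower also fell, from 27.0% to 16.7%. Within 10 kb, with fewer neighbours tested, they were 6 and 5. DESeq2 called 12 of 50 tested neighbours higher and 13 lower, against 22.4% and 19.5% of all genes it tested. With at most 5 control fragments a gene, depth limits every control level.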
